A study of Mus musculus with 12 samples.

Results

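Day 2 mouse primordial germ cell-like cells labelled OE for Tex10 were compared with day 2 cells labelled EV, in 4 of the 12 libraries of the study, 2 per group. The libraries were taken by their titles. OE and EV are abbreviations of the submitters and are read here as overexpression and empty vector. All 4 came from J1 male mouse embryonic stem cells, a line widely used for gene targeting, with the treatment given as not applicable in both groups. The cells were sorted from day 2 embryoid bodies, free-floating cell aggregates, with antibodies to CD61 and SSEA1. The vector, the promoter that drove Tex10 and the number of clones are not given in the sources used here. Used for reference were 2 day 2 libraries treated with DMSO for 2 days, and 2 EV and 2 OE libraries of day 6. The model fit also held 2 day 2 libraries treated with dTAG13 for 2 days, called D2_dTAG here. dTAG13 is a small molecule that directs proteins fused to a degradation tag to breakdown, and the tagged protein is not given in the sources used here.

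Tex10 is a nuclear protein of the rixosome, a complex that matures the large ribosomal subunit and removes RNA at silenced chromatin, and in embryonic stem cells it has been described as a partner of Sox2 at enhancers. Primordial germ cell-like cells are the cultured counterpart of the embryo's first germ cells. They arise from formative pluripotent cells under BMP signalling and are specified by the transcription factors Prdm1, Prdm14 and Tfap2c, while Nanos3 protects them from cell death. Poly(A) RNA of the sorted cells was sequenced, and the deposited levels are FPKM, fragment counts scaled to transcript length and library size.

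Of 12059 genes with an FPKM of 1 or more in at least 2 libraries, 53 rose in OE (0.440%) and 49 fell (0.406%), at a Benjamini-Hochberg adjusted p below 0.05 in limma. The genes that rose were led by Rpph1, Pla2g1b, Terc, Trib3, Tuba3a and Tex10 itself, and those that fell by Sct, Xlr3b, Xlr3a and Aldh3b2. Changes are OE minus EV on the log2(FPKM + 1) scale, which understates the change of low genes, and are given with the standard error (SE) of the fit. They ran from 0.51 to 2.29 among the genes that rose and from -0.63 to -2.33 among those that fell, around a median of 0.04 over all tested genes. Both OE libraries lay above both EV libraries for 3756 genes (31.1%) and below them for 2730 (22.6%), and all 102 called genes were among these.

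**Figure D1:**
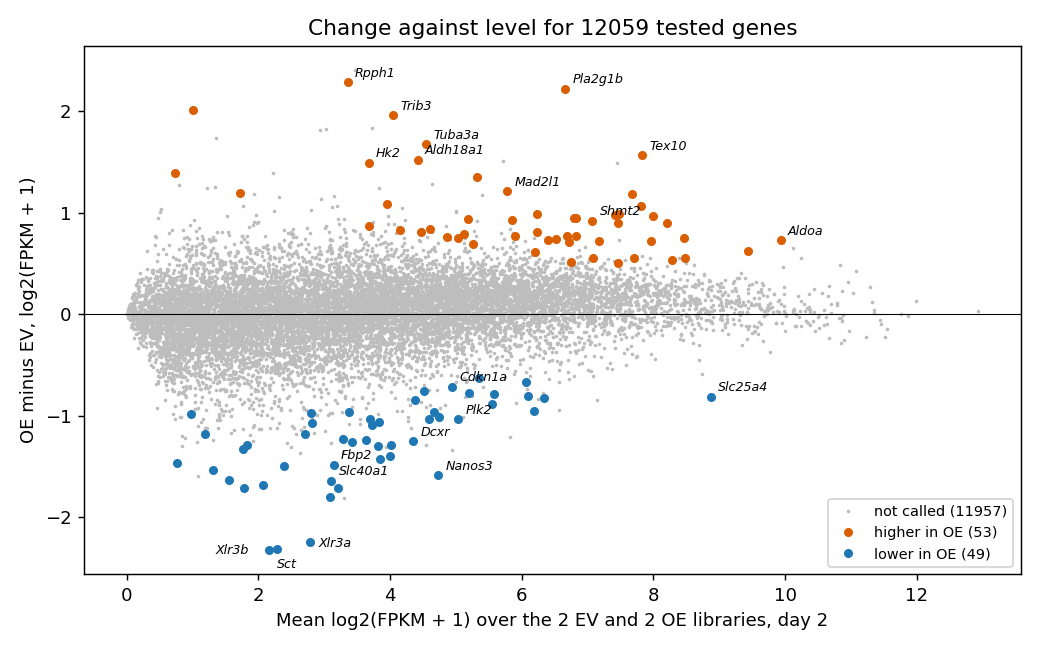
Each point is 1 of 12059 tested genes, with its mean level over the 4 libraries on the x axis (log2(FPKM + 1)) and OE minus EV on the y axis. The 53 genes that rose and the 49 that fell are coloured, and the rest are grey.

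The spread behind these tests was shared by all 6 groups, and 1 library outside the comparison stood apart: D2_dTAG replicate 1 listed 2008 genes at 0, against 18 to 127 in the other 11. Without it 966 genes rose (8.01%) and 726 fell (6.02%), with all 102 genes still called, so gene groups are given below under both fits, the fit of all 12 libraries first. Counts of a group in the second fit are to be set against 8.01% higher and 6.02% lower. List medians are compared with those under quantile normalization where these differ by over 1.5 times or in sign. The median of all genes was 0.01 there and 0.01 under median-ratio scaling. Of the 102 calls, 18 were left without EV replicate 1, 4 without EV replicate 2, 4 without OE replicate 1 and 1 (Pla2g1b) without OE replicate 2. All 102 kept their direction each time, which no leave-out could change, because both OE libraries lay beyond both EV libraries for each gene. The labels do not say whether the 2 libraries of a group were separate cultures, so the p-values measure the spread between these libraries, which may be technical. An exact permutation of 2 libraries against 2 cannot give a two-sided p below 0.333. Depth is unknown, and fewer cells of a type cannot be told apart from less RNA per cell.

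Tex10 (chromosome 4, 48430858 to 48473459 in mm10) read 119 and 145 FPKM with EV and 403 and 378 with OE. Both OE libraries stood well above both EV libraries. The change was 1.57 (SE 0.15, adjusted p = 0.0028), and it missed the threshold without OE replicate 1 (1.52, adjusted p = 0.067) and without OE replicate 2 (1.61, adjusted p = 0.0529). The DMSO libraries read 61.7 and 56.8 FPKM, below both EV libraries. Native and introduced Tex10 cannot be told apart in this value. Of the other 12 tested genes of the rixosome and its neighbours in ribosome assembly 0 were called in limma (1 at an unadjusted p below 0.05), and without D2_dTAG replicate 1 Bop1 rose. Bop1, a factor of large subunit assembly, read 122 and 96.5 FPKM with EV and 154 and 133 with OE (change 0.39, adjusted p = 0.234 with all libraries and 0.0469 without that one). Pelp1, a scaffold of the complex, read 16.5 and 18.3 FPKM with EV and 17.0 and 14.7 with OE. Las1l, an endonuclease that cuts the ribosomal RNA precursor, read 88.7 and 90.3 with EV against 105 and 91.3 with OE.

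The sorted cells carried germ cell and pluripotency transcripts in every library. All 7 germ cell markers (Prdm1, Prdm14, Tfap2c, Nanos3, Dnd1, Dppa3 and Kit) were above 0 in the 4 libraries, with summed FPKM of 204 and 226 with EV and 190 and 157 with OE. The pluripotency markers Pou5f1, Sox2 and Nanog summed to 1177 and 1151 with EV and 1413 and 1342 with OE. Of the markers of other cell types, the mesoderm markers Mixl1, Eomes and Kdr summed to 2.28 to 3.43 FPKM, the endoderm markers Gata4 and Gata6 to 0.761 to 1.23, neural markers Pax6 and Neurod1 to 3.41 to 6.64, and the trophoblast markers Gata3 and Plac1 to 0.497 to 1.34. The fibroblast marker Col1a1 read 0.0313 to 0.523. Higher were the endothelial and blood markers Pecam1 and Gata1, which summed to 32.2 and 32.95 FPKM with EV and 38.4 and 34.3 with OE, nearly all of it Pecam1, and the cardiac marker Myl7, at 10.5 and 9.92 with EV and 9.50 and 10.8 with OE. Pecam1 is also known in pluripotent and germ cells. Gata6 was listed at 0 in both OE libraries and Plac1 in OE replicate 1. Mesp1, Sox17, Foxa2, Sox1 and Cdx2 had no entry under these symbols among the 12955 genes with levels. Neither had T, Afp, Elf5, Tnnt2, Actc1, Cdh5, Ptprc, Col1a2, Col3a1, Dcn and Thy1. The fibroblast type therefore rests on Col1a1 alone and the cardiac type on Myl7 alone. Itgb3, the gene of the CD61 antigen used in the sort, read 0.822 and 0.915 FPKM with EV and 1.04 and 0.756 with OE, with overlapping groups.

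The gene group with the highest median was that of ATF4 and amino acid supply. ATF4 is the transcription factor of the integrated stress response and switches on enzymes, transporters and tRNA synthetases when amino acids run short. Of 39 tested members 5 rose and 0 fell, and without D2_dTAG replicate 1 20 rose and 0 fell, with a median change of 0.48 against 0.04 over all genes. Both OE libraries exceeded both EV libraries for 29 members (74.4%, against 31.1% of all genes).

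Trib3 (chromosome 2, 152337422 to 152344032), a pseudokinase that damps ATF4 signalling, read 7.71 and 7.10 FPKM with EV and 31.9 and 31.4 with OE. Replicates of either group were nearly equal and the groups lay far apart, with a change of 1.96 (SE 0.16, adjusted p = 0.00179). Aldh18a1 on chromosome 19, which opens proline synthesis from glutamate, read 12.6 and 10.8 with EV against 36.3 and 34.4 with OE, a change of 1.52 (SE 0.25, adjusted p = 0.0292). Psat1 and Shmt2 act on serine, the first in its synthesis and the second in the mitochondrial step that passes its carbon to folate. Psat1 read 79.1 and 79.2 FPKM with EV and 158 and 150 with OE, a change of 0.95 (SE 0.15, adjusted p = 0.0253). Shmt2 read 102 and 91.6 with EV and 189 and 179 with OE, a change of 0.92 (SE 0.10, adjusted p = 0.00654). Asns on chromosome 6, asparagine synthetase, was the smallest of the 5 changes at 0.73 (SE 0.12, adjusted p = 0.0271), from 185 and 200 FPKM to 344 and 297. In DMSO all of these 4 were nearer to EV than to OE: Trib3 read 10.5 and 8.92, Psat1 62.6 and 64.7, Shmt2 91.5 and 82.4, and Asns 250 and 234.

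Several of the best-known members were well separated and were called only without D2_dTAG replicate 1. Nupr1, a small stress-induced chromatin protein, read 2.89 and 4.90 FPKM with EV and 20.9 and 28.5 with OE (change 2.41, adjusted p = 0.0911 with all libraries and 1.01e-05 without that one). Chac1, which degrades glutathione, read 3.02 and 3.13 with EV and 13.2 and 13.5 with OE (change 1.81, adjusted p = 0.313 and 0.000137). The Atf4 transcript itself read 28.0 and 26.0 with EV and 63.1 and 61.4 with OE (change 1.18, adjusted p = 0.178 and 3.81e-05). In none of the 3 did the groups overlap, and both OE libraries exceeded both EV libraries for 31.1% of all genes too. Other members were called in neither fit: Ddit3, the stress factor CHOP, read 6.76 and 7.996 with EV and 8.15 and 8.90 with OE, and Slc38a2, an amino acid carrier, read 73.8 and 79.3 against 74.8 and 72.6. Of 20 tested genes of the unfolded protein response, which shares the ATF4 arm, 0 were called in limma (1 higher and 1 lower at an unadjusted p below 0.05), with a median of -0.03 (-0.11 under quantile normalization), and without D2_dTAG replicate 1 0 rose and 1 fell. At day 6, in other libraries, 3 of the 39 ATF4 and amino acid genes rose and 2 fell, with a median of 0.27.

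Cytosolic tRNA synthetases, the enzymes that load amino acids onto tRNAs, were the next group: 5 of 20 rose and 0 fell, and without D2_dTAG replicate 1 10 rose and 0 fell. Both OE libraries exceeded both EV libraries for 17 of the 20 (85.0%, against 31.1% of all genes), and the median change was 0.34 (0.21 under quantile normalization). Aars (alanine) read 189 and 172 FPKM with EV and 376 and 336 with OE, a change of 0.97 (SE 0.16, adjusted p = 0.0292). Nars (asparagine) read 106 and 149 against 263 and 237, a change of 0.99 (SE 0.18, adjusted p = 0.0432). The 2 EV libraries of Nars were further apart than those of Aars, but neither reached the OE level. Cars (cysteine) changed by 0.81, Tars (threonine) by 0.72 and Yars (tyrosine) by 0.72, each with both OE libraries above both EV libraries. The synthetases for aspartate, Dars (105 and 137 with EV, 112 and 109 with OE), and lysine, Kars (277 and 289 against 299 and 264), were called in neither fit. At day 6, 0 of the 20 were called in limma, and 5 had an unadjusted p below 0.05.

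**Figure D2:**
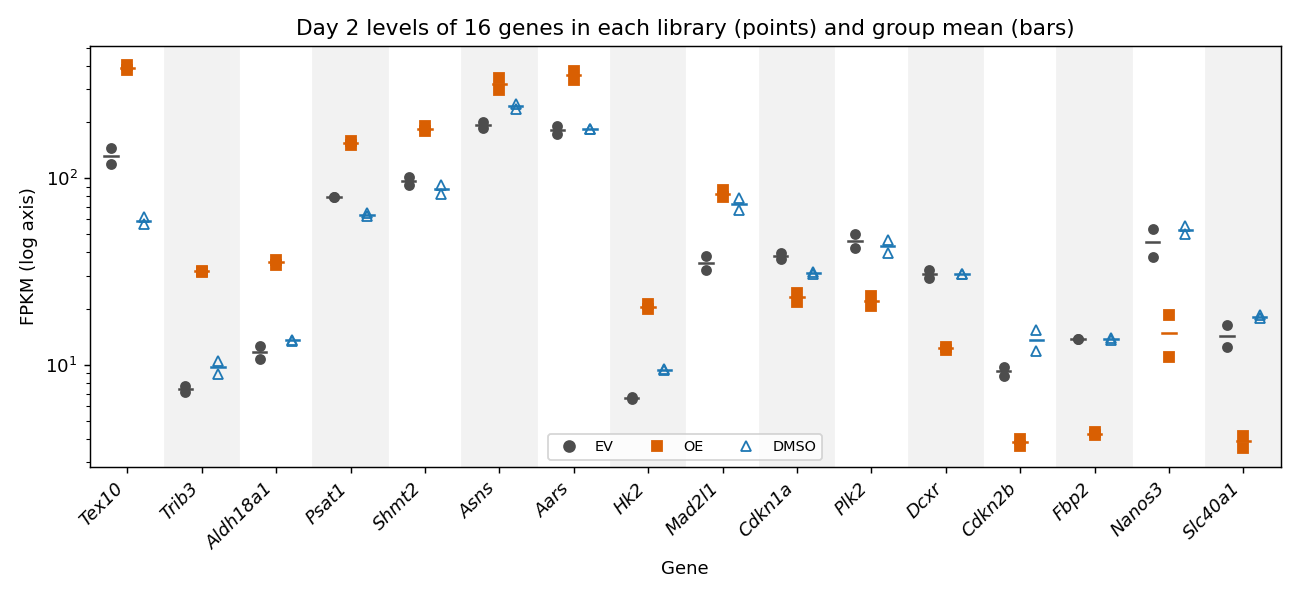
FPKM on a log axis of 16 genes in the day 2 EV, OE and DMSO libraries, each library a point and each group mean a bar. The 2 Trib3 values with OE (31.9 and 31.4) lie above the EV values (7.71 and 7.10), and the DMSO values (10.5 and 8.92) lie near EV.

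Promoter sequence was read for these 2 lists, because ATF4 binds composite C/EBP-ATF elements near the start of its targets. The motif TGATGNAA was searched on both strands in RefSeq promoter windows of 300 bases (250 before to 50 after the annotated start, GRCm38.p6, the assembly of mm10). It occurred in 3.97% of all 32851 promoters and in 2.64% of the 9182 tested genes with a promoter. Of the 10 called members of both lists 8 had a promoter and 5 held the motif, and of the 44 genes with a promoter among all that rose the same 5 held it. Of the 40 with a promoter among the genes that fell 3 held it (Gadd45g, Mup6 and Rab3il1). The windows are Trib3 (chr2:152344011-152344310, minus strand), Asns (chr6:7693160-7693459, minus strand), Aars (chr8:111033592-111033891, plus strand), Tars (chr15:11399609-11399908, minus strand) and Yars (chr4:129189653-129189952, plus strand). They are shown 5′ to 3′ along the gene's strand because these genes hold the motif and rose together, with the motif in capitals (TTNCATCA is the same motif read on the other strand).
Trib3: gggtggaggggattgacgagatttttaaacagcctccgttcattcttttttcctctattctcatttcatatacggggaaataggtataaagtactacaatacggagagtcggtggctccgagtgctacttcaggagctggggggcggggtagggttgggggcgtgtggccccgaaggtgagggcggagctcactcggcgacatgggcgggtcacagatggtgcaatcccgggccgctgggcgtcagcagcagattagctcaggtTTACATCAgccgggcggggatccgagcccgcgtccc
Asns: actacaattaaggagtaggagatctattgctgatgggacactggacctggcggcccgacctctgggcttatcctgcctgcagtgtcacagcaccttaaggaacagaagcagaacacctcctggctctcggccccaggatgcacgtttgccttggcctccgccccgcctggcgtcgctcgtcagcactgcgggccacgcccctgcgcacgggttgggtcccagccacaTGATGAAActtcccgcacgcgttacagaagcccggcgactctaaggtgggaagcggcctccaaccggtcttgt
Aars: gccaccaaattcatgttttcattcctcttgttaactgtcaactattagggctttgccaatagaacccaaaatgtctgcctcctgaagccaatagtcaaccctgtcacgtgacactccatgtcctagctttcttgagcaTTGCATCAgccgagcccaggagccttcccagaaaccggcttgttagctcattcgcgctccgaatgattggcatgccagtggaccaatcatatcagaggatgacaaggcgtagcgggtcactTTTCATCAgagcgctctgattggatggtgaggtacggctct
Tars: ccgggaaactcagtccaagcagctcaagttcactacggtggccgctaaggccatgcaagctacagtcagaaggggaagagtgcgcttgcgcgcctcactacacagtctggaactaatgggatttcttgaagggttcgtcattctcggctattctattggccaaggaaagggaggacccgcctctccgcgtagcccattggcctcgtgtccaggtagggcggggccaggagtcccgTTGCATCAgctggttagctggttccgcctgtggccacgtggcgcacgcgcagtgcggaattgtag
Yars: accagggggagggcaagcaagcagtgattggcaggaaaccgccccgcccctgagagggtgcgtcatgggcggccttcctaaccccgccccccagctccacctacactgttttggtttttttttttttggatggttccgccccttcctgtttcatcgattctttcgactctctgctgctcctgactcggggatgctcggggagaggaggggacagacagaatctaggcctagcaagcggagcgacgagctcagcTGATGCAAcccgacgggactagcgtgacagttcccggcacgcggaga
Counted from the annotated start, the match begins at base 15 in Trib3, -23 in Asns, -15 in Tars and 4 in Yars, and Aars holds it at -112 and 10. Psat1, Shmt2 and Aldh18a1 have a promoter in the table without this motif in the window. Among the 20 members called only without D2_dTAG replicate 1, 7 of the 17 with a promoter held it (Chac1, Pycr1, Slc1a4, Nupr1, Got1, Gars and Iars), and among the 29 members called higher in neither fit 3 of the 20 with a promoter did (Atf3, Herpud1 and Jdp2). A match describes the letters of the window and is not evidence of binding.

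Glycolytic enzymes followed: 4 of 39 tested genes of glycolysis and the hypoxia response rose and 0 fell, with a median of 0.31, and without D2_dTAG replicate 1 12 rose and 1 fell. Of the 4, Tpi1 missed the threshold under quantile normalization, and Tpi1 and Aldoa under median-ratio scaling, which left 3 and 2. Hk2 on chromosome 6, the inducible hexokinase that commits glucose to the pathway, read 6.74 and 6.51 FPKM with EV and 21.1 and 19.8 with OE, a change of 1.49 (SE 0.15, adjusted p = 0.00506). Pfkp, the platelet form of phosphofructokinase, read 44.6 and 37.2 with EV against 74.3 and 83.1 with OE (change 0.93, SE 0.17, adjusted p = 0.0408). Tpi1 rose by 0.90 and Aldoa by 0.73. Part of the list was high in 1 OE library alone: Slc16a3, the lactate exporter, read 12.003 and 13.3 with EV and 11.8 and 51.6 with OE, and Bnip3, a hypoxia-induced mitophagy receptor, read 15.2 and 22.7 against 11.6 and 51.6. Tpi1 was also higher with OE replicate 2 (484) than with OE replicate 1 (335), both above EV (218 and 212). The part of that library's difference in these changes was not tested. At day 6, 5 of the 39 rose and 1 fell.

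The fructose bisphosphatases Fbp2 and Fbp1 run the gluconeogenic step opposite phosphofructokinase. Fbp2 read 13.7 and 13.7 FPKM with EV and 4.38 and 4.18 with OE (change -1.48, SE 0.19, adjusted p = 0.011), and Fbp1 fell by 1.32 (SE 0.23, adjusted p = 0.0321) from 4.69 and 4.04 to 1.43 and 0.883. Mpc1, a subunit of the mitochondrial pyruvate carrier, read 45.4 and 48.6 with EV and 28.3 and 25.9 with OE, a change of -0.77 (SE 0.14, adjusted p = 0.0435). Slc25a20, the carnitine and acylcarnitine carrier of fatty acid oxidation, changed by -0.81 (SE 0.13, adjusted p = 0.0288), and Slc25a4, the ATP and ADP exchanger, by -0.81 (SE 0.10, adjusted p = 0.0094). None of these 5 genes belonged to a list. Fbp2 was named for the size of its fall, and the other 4 were picked after their values were seen. Of 40 nuclear genes of oxidative phosphorylation 0 were called in limma (5 higher and 0 lower at an unadjusted p below 0.05), with a median of 0.05 (-0.03 under quantile normalization), and without D2_dTAG replicate 1 4 rose and 0 fell.

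Among 44 tested p53 targets 6 fell and 0 rose, and without D2_dTAG replicate 1 20 fell and 3 rose. p53 is the DNA damage factor that halts the cell cycle and promotes cell death. The median was -0.29, and both OE libraries lay below both EV libraries for 28 members (63.6%, against 22.6% of all genes). Cdkn1a, the p21 inhibitor of cyclin-dependent kinases, read 39.7 and 36.9 FPKM with EV and 24.3 and 21.8 with OE, a change of -0.71 (SE 0.12, adjusted p = 0.0321). Plk2, a polo-like kinase, read 42.0 and 50.2 against 23.3 and 20.6, a change of -1.03 (SE 0.13, adjusted p = 0.0102). Dcxr, a xylulose reductase, fell by 1.25 (SE 0.17, adjusted p = 0.0131) from 32.2 and 29.0 to 12.5 and 11.97. Ckap2, Cpt1c and Ei24 were the other 3 and changed by -0.95, -0.75 and -0.66.

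Sesn2, Gdf15 and Ddit4 stand in both the p53 and the ATF4 list. Some well-known p53 targets did not pass with all libraries. Perp, a membrane effector of p53, read 82.1 and 88.4 FPKM with EV and 38.9 and 33.8 with OE (change -1.21, adjusted p = 0.0588, and 0.0002 without D2_dTAG replicate 1). Pmaip1, which encodes the BH3-only protein Noxa, read 11.1 and 16.4 with EV and 4.92 and 5.77 with OE (adjusted p = 0.17), and Mdm2, the ubiquitin ligase that removes p53, read 92.9 and 116 against 60.8 and 60.0 (adjusted p = 0.166). All 3 had separate groups, with both OE libraries below both EV libraries, as did 22.6% of all genes. The Trp53 transcript read 393 and 343 with EV and 439 and 381 with OE, with overlapping groups. In the opposite direction Bid, a BH3-only protein of death receptor signalling on chromosome 6, rose by 0.74 (SE 0.10, adjusted p = 0.0131). The G1 inhibitor Cdkn2b, which encodes p15 and is not in the p53 list, read 9.74 and 8.67 with EV and 4.0004 and 3.68 with OE, a change of -1.07 (SE 0.18, adjusted p = 0.0321). Of the 23 G1 cyclins, kinases and inhibitors tested, Cdkn1a and Cdkn2b were the 2 called, and without D2_dTAG replicate 1 1 rose and 4 fell.

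**Figure D3:**
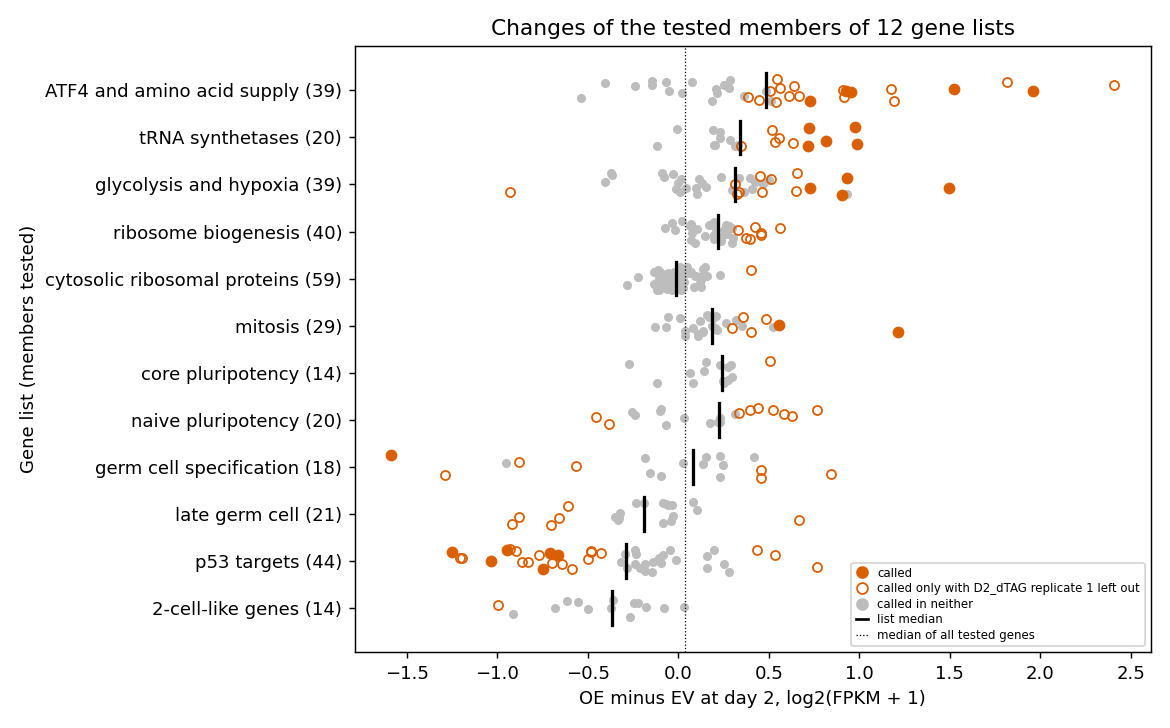
OE minus EV on the log2(FPKM + 1) scale for the tested members of 12 gene lists, each member a point and each list median a black bar. Filled points are called with all libraries and open points only without D2_dTAG replicate 1. The ATF4 and amino acid list has the highest median of the 12 (0.48) and the 2-cell-like list the lowest (-0.37).

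Of 29 mitotic genes 2 rose (6 without D2_dTAG replicate 1) and 0 fell, with a median of 0.19 (0.078 under quantile normalization). Mad2l1, the spindle checkpoint protein, read 32.1 and 38.3 FPKM with EV and 86.1 and 79.2 with OE, a change of 1.21 (SE 0.14, adjusted p = 0.00678). Its DMSO values of 77.9 and 67.2 were close to OE. Aurka, the Aurora A kinase of the spindle poles, rose by 0.56 (SE 0.10, adjusted p = 0.0321). In DMSO Aurka read 226 and 213, between the groups and nearer to OE. Tuba3a on chromosome 6, an alpha tubulin, read 13.3 and 11.03 with EV and 42.3 and 39.5 with OE (change 1.68, SE 0.22, adjusted p = 0.0117), though reads of Tuba3a and its near-identical copy Tuba3b may not be separable.

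Ribosome biogenesis is the process in which the rixosome acts. Of 40 nucleolar factors 0 were called in limma with all libraries (9 higher and 0 lower at an unadjusted p below 0.05) and 7 rose without D2_dTAG replicate 1, among them Nop16, which read 89.5 and 96.6 FPKM with EV and 154 and 124 with OE (change 0.56, adjusted p = 0.0911 and 0.00838). The median was 0.22 (0.10 under quantile normalization). Both OE libraries exceeded both EV libraries for 28 of the 40 (70.0%, against 31.1% of all genes), and 0 showed the reverse (against 22.6%). The 59 cytosolic ribosomal protein genes had a median of -0.01 (-0.08 under quantile normalization) with 0 called in limma (1 higher and 1 lower at an unadjusted p below 0.05), and 1 higher without that library. The difference between the 2 lists was not tested.

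Of 18 tested germ cell specification genes 1 fell and 0 rose. Without D2_dTAG replicate 1, 4 fell (22.2%, against 6.02% of all genes) and 3 rose (16.7%, against 8.01%). Nanos3 (chromosome 8, 84173731 to 84185217), an RNA-binding repressor needed for germ cell survival, read 37.8 and 53.6 FPKM with EV and 18.5 and 10.99 with OE. Both OE libraries were below both EV libraries, with a change of -1.59 (SE 0.30, adjusted p = 0.0462), and DMSO read 55.2 and 50.01. Tfap2c read 74.8 and 87.2 with EV and 51.1 and 37.0 with OE (change -0.88, adjusted p = 0.0691, and 0.00252 without D2_dTAG replicate 1), and Prdm1 read 5.7997 and 6.83 against 4.11 and 3.75 (adjusted p = 0.297 and 0.0307). Prdm14 read 21.6 and 19.3 with EV and 19.09 and 19.01 with OE, called in neither fit. Rhox9, a homeobox gene on the X chromosome, read 32.9 and 38.5 with EV and 17.2 and 11.3 with OE (adjusted p = 0.0958 and 0.00195). Dnd1, an RNA-binding protein that works with Nanos proteins, was higher in both OE libraries: 29.3 and 28.9 against 17.5 and 14.2 with EV (change 0.84, adjusted p = 0.0514 and 0.00176). Kit, the receptor for stem cell factor, read 18.2 and 17.3 with EV against 26.3 and 23.2 with OE (adjusted p = 0.235 and 0.0256). The median of the list was 0.08 and turned to -0.04 under quantile normalization.

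Core pluripotency genes showed 0 calls of 14 in limma with all libraries (3 higher and 0 lower at an unadjusted p below 0.05) and 1 (Trap1a, higher) without D2_dTAG replicate 1. Pou5f1, the factor Oct4, read 961 and 889 FPKM with EV and 1156 and 1079.9 with OE, Sox2 27.6 and 34.9 against 25.5 and 25.5, and Nanog 188 and 227 against 232 and 236. None of the 3 passed in either fit. Of 20 naive pluripotency genes 0 were called in limma with all libraries (6 higher and 2 lower at an unadjusted p below 0.05), and 7 rose and 2 fell without D2_dTAG replicate 1. Socs3, a feedback inhibitor of the LIF and STAT3 pathway, was the furthest at 27.8 and 30.9 with EV and 56.4 and 45.4 with OE (change 0.77, adjusted p = 0.0544 and 0.00123). Of 21 later germ cell and meiotic genes 0 were called in limma (1 higher and 3 lower at an unadjusted p below 0.05), with a median of -0.19 (-0.11 under quantile normalization), and 1 rose and 5 fell without D2_dTAG replicate 1.

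Xlr3a and Xlr3b, X-linked lymphocyte-regulated genes near each other on the X chromosome, were among the deepest losses. Xlr3a read 12.6 and 15.3 FPKM with EV and 2.13 and 2.17 with OE (change -2.24, SE 0.19, adjusted p = 0.00185), and Xlr3b 9.25 and 10.3 against 0.929 and 1.44 (change -2.31, SE 0.25, adjusted p = 0.00622). The 2 are near-identical copies, so reads may be split between them. In DMSO both were lower still (0.528 and 0.481 for Xlr3a), and with EV at day 6 they read as with EV at day 2 (14.1 and 15.4 for Xlr3a). Their neighbour Pnma5 fell by 1.72 (SE 0.31, adjusted p = 0.0432). These were 3 of 17 tested members of the Xlr, Mage and X-linked germ line list, and without D2_dTAG replicate 1 2 rose and 6 fell.

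Of the signalling routes that act on these cells none held a called gene in limma with all libraries. Over all genes 0.440% rose and 0.406% fell in that fit, so 0 calls in lists of this size is near the general share. The BMP and TGF-beta response list had 0 of 16 called (0 at an unadjusted p below 0.05), and without D2_dTAG replicate 1 0 rose and 2 fell. The Nodal list had 0 of 16 (0 higher and 3 lower unadjusted), and then 0 rose and 2 fell. The list of FGF ligands and ERK feedback had 0 of 25 (1 higher and 2 lower unadjusted), and then 1 rose and 5 fell. The Wnt list had 0 of 25 (1 higher and 1 lower unadjusted), and then 2 rose and 3 fell. Over all genes 8.01% rose and 6.02% fell without that library. Id1, a direct BMP target, read 177 and 106 FPKM with EV and 93.1 and 102 with OE (adjusted p = 0.446). Its EV libraries lay further apart than its OE libraries.

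Of 34 tested imprinted genes 1 rose and 1 fell. Without D2_dTAG replicate 1, 3 rose (8.82%, against 8.01% of all genes) and 7 fell (20.6%, against 6.02%). Phlda2, a maternally expressed growth inhibitor of the placenta, rose by 0.95 (SE 0.13, adjusted p = 0.0117). Snhg14, the long host RNA of the Snrpn domain, read 4.32 and 9.55 FPKM with EV and 1.18 and 1.51 with OE (change -1.68, SE 0.31, adjusted p = 0.0432), and Snrpn itself 176 and 203 against 120 and 90.6 (adjusted p = 0.188 and 0.0022). Snhg14 overlaps Ube3a on the opposite strand, and whether counting used strand is not given in the sources used here, so their reads cannot be told apart. DMSO libraries read 1.89 and 2.02 for Snhg14 and 75.5 and 79.5 for Snrpn, on the OE side in both.

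Outside these groups the clearest single change was that of Pla2g1b (chromosome 5, 115466262 to 115474722), a secreted phospholipase, which read 47.0 and 44.5 FPKM with EV and 230 and 206 with OE. Its change of 2.22 (SE 0.12, adjusted p = 9.22e-05) was the only one of the 102 called under each of the 4 leave-outs. Of 16 iron genes 1 rose and 1 fell. Without D2_dTAG replicate 1, 1 rose (6.25%, against 8.01% of all genes) and 2 fell (12.5%, against 6.02%). Slc40a1, the iron exporter ferroportin, read 12.4 and 16.3 with EV and 4.17 and 3.59 with OE (change -1.64, SE 0.22, adjusted p = 0.0117), while Aco1, the iron-sensing aconitase, rose by 0.81 (SE 0.13, adjusted p = 0.0271). Txnip, which curbs glucose uptake, rose by 0.83 (SE 0.15, adjusted p = 0.0433), and its relative Arrdc4 read 7.45 and 9.17 with EV and 21.9 and 20.2 with OE (adjusted p = 0.0754 and 8.44e-05). Txnip stood higher in DMSO (50.7 and 38.1) than with OE (22.6 and 23.1).

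Rpph1, the RNA of RNase P, read 4.91 and 2.65 FPKM with EV and 18.9 and 24.8 with OE (change 2.29, SE 0.32, adjusted p = 0.0131). Terc, the telomerase RNA, was listed at 0 in both EV libraries and at 2.58 and 3.56 with OE. Neither RNA carries a stable poly(A) tail, and the libraries were enriched for poly(A). Secretin (Sct) read 8.21 and 9.98 with EV and 1.27 and 0.773 with OE, a change of -2.33 (SE 0.26, adjusted p = 0.00654).

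Upp1, uridine phosphorylase, read 128 and 113 FPKM with EV and 229 and 247 with OE (change 0.98, adjusted p = 0.00938). Akr1b3, aldose reductase, read 299 and 245 against 478 and 436 (change 0.75, adjusted p = 0.0196). Among the genes that fell were Derl3, a protein of endoplasmic reticulum degradation, at 23.5 and 21.9 with EV and 8.31 and 7.30 with OE (change -1.43, adjusted p = 0.00678), and the lysosomal Cd68 at 31.4 and 35.4 against 16.6 and 15.1 (change -1.03, adjusted p = 0.0131). The calcium-dependent lipid-binding annexins Anxa1 and Anxa2 fell by 1.399 (adjusted p = 0.0147) and 1.01 (adjusted p = 0.0215), with no overlap of groups in either. Serpine2, a secreted protease inhibitor, changed by -0.85 (adjusted p = 0.0404), and Gpx3, a secreted glutathione peroxidase, by -0.96 (adjusted p = 0.0255). Akr1b3, Cd68, Anxa2 and Serpine2 were chosen after their values were seen. Derl3 in DMSO read 14.7 and 15.7, between the groups, and the other 7 genes lay nearer to EV than to OE.

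Positions of the called genes were uneven. Chromosome 6 held 13 of the 53 genes that rose (2.5% of its 519 tested genes, against 0.440% of all) and had a median change of 0.14. The 13 were Asns, Akr1b3, Skap2, Mad2l1, Hk2, Trh, Jagn1, Bid, Phb2, Tpi1, Ncapd2, Tuba3a and Ddx47. Chromosome 8 held 7 of the 49 that fell (1.07% of 655, against 0.406%): Cars2, Ckap2, Vps36, Tacc1, Tusc3, Slc25a4 and Nanos3. Without D2_dTAG replicate 1, 92 of the 519 genes of chromosome 6 rose and 15 fell. Of the 655 of chromosome 8, 50 rose and 102 fell. Over all genes 8.01% rose and 6.02% fell in that fit. The part of a shift along either chromosome in these changes was not tested. With the genes of both chromosomes left out and p-values adjusted over the rest, 25 genes rose and 25 fell.

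The DMSO libraries offered a second set of day 2 cells without the OE label. Their mean lay nearer to EV than to OE for 40 of the 53 genes that rose and 43 of the 49 that fell. Exceptions included Mad2l1, Aurka, Txnip, Trh, Xlr3a, Xlr3b and Nedd4. Nedd4, a ubiquitin ligase, read 122 and 135 with EV, 235 and 244 with OE and 242 and 233 in DMSO. DMSO and EV also differed on the OE side: both DMSO libraries lay above both EV libraries for 35 of the 53 genes that rose. They lay below both EV libraries for 17 of the 49 that fell. The shares over all tested genes were not counted, so these numbers cannot be called unusual for the called genes. The called genes were also picked with the same EV libraries that DMSO is set against here.

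Day 6 OE and EV libraries gave a second measurement of the contrast in the same fit, with 232 genes higher (1.92%) and 216 lower (1.79%). Of the 53 genes that rose at day 2, 15 rose at day 6 (28.3% of the day 2 list and 6.47% of the day 6 list), and of the 49 that fell 21 fell (42.9% and 9.72%). Tex10, Asns, Psat1, Mad2l1, Tuba3a, Nedd4, Txnip and Phlda2 were among the first, and Plk2, Dcxr, Cdkn2b, Fbp2, Anxa1, Xlr3a and Xlr3b among the second. Of the 53, 44 had a positive change at day 6, against 55.98% of all genes, and of the 49, 39 had a negative one, against 44.0%.

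The day 6 effect differed from the day 2 effect for 28 genes (0.232%), of which 7 were called at day 2. Trib3 rose at day 2 by 1.96 and changed by 0.54 at day 6 (12.2 and 10.7 FPKM with EV, 17.9 and 16.5 with OE, adjusted p = 0.102), a difference of -1.42 (adjusted p = 0.0479). Trh, the precursor of thyrotropin-releasing hormone, read 135 and 133 with EV at day 2 and 296 and 316 with OE at day 2 (change 1.19, SE 0.17, adjusted p = 0.0143). In DMSO at day 2 it read 387 and 332, above both OE libraries. At day 6 Trh read 68.6 and 92.8 with EV against 26.5 and 19.3 with OE, a change of -1.78. Gadd45g, a stress sensor that slows the cell cycle, went the other way: 21.7 and 26.9 with EV at day 2 against 9.26 and 9.36 with OE (change -1.29, SE 0.20, adjusted p = 0.0255), and 23.6 and 15.02 against 50.3 and 40.2 at day 6 (change 1.21, adjusted p = 0.0141). Trh and Gadd45g were the 2 genes called at both days in opposite directions.

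**Figure D4:**
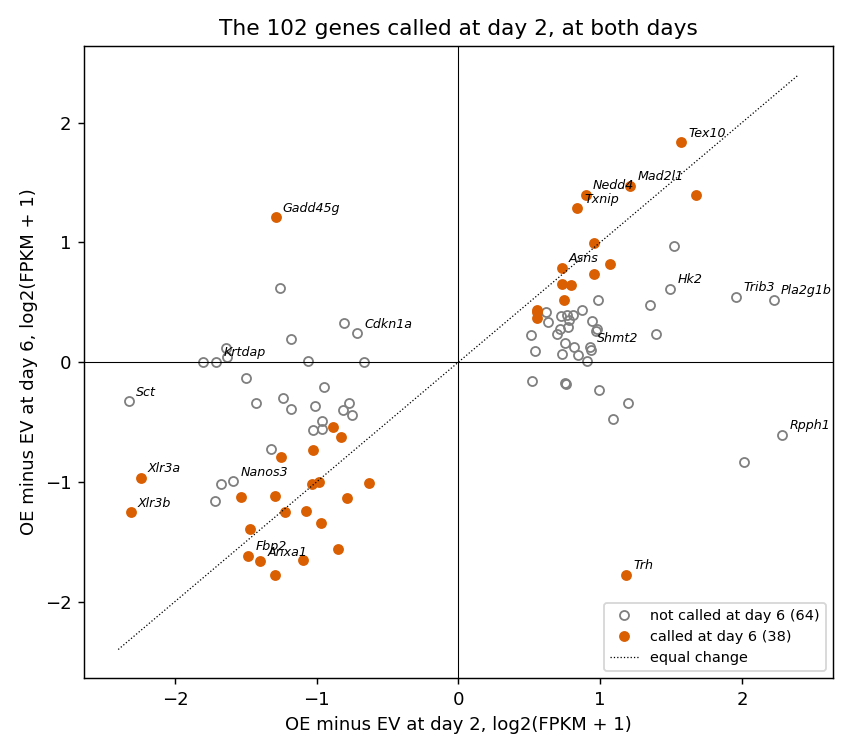
The 102 genes called at day 2, with OE minus EV at day 2 on the x axis and at day 6 on the y axis (log2(FPKM + 1)). Filled points are the 38 also called at day 6 and open points the 64 that were not, with Trh and Gadd45g in the quadrants of opposite sign.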

How the data were processed

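Per the submitters' processing notes, reads were handled with FastQC 0.10.1, Trim Galore 0.6.3, cutadapt, STAR 2.7.6a and Cufflinks 2.2.1 on mm10. The authors deposited FPKM values with an added 1 (inferred from the lowest value, 1), which was subtracted. Sequencing depth is not given in the sources used here. Of 12955 genes, 12059 with an FPKM of 1 or more in at least 2 of 12 libraries were tested, and 896 were left out. limma 3.58.1 (R 4.3.3) was fitted to log2(FPKM + 1) with a trended prior variance and 6 groups of 2 libraries in 1 model (6 residual degrees of freedom), with Benjamini-Hochberg adjustment over all tested genes and a threshold of 0.05, two-sided. The fit was tested on simulated data in which each gene had the same spread in every group, taken from the groups other than D2_dTAG. The wider spread of D2_dTAG replicate 1 was not simulated. Positions were matched to GENCODE by symbol for 12457 genes. The comparison, the 50 gene lists and their members were chosen with earlier results of these data known. Named genes were Tex10, Itgb3, up to 15 per direction by size of change (mean of 5 FPKM or more), up to 4 called or 3 other members per list, the germ cell specification list, and up to 6 for the difference between days. Others, such as Bop1, Atf4, Nupr1, Chac1, Perp, Fbp1, Mpc1, the chromosome 6 and 8 genes and Nedd4, were chosen after their values were seen.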

Additional observations from a re-analysis of the deposited data

Results flagged for a closer look

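The OE effect at day 6 minus that at day 2 passed the test of the difference itself (limma, Benjamini-Hochberg over 12059 genes) for 9 of the genes named by the rules. The difference was negative for Trh (-2.96, adjusted p = 0.00149), Rpph1 (-2.89, adjusted p = 0.0469), Aoah (-2.51, adjusted p = 0.0248), Enox1 (-2.43, adjusted p = 0.0314), Id3 (-2.31, adjusted p = 0.000116), Pla2g1b (-1.70, adjusted p = 0.00956) and Trib3 (-1.42, adjusted p = 0.0479). It was positive for Gadd45g (2.50, adjusted p = 0.0155) and Krtdap (1.71, adjusted p = 0.0339). Aoah, Enox1 and Id3 were not called at day 2 and fell at day 6: Id3, a target of BMP signalling, read 302 and 283 FPKM with EV at day 2 and 280 and 260 with OE at day 2, against 180 and 183 with EV at day 6 and 33.1 and 32.6 with OE at day 6. Krtdap, a keratinocyte protein, read 16.3 and 15.3 with EV at day 2 and 3.98 and 4.30 with OE at day 2, against 2.52 and 2.04 with EV at day 6 and 2.12 and 2.45 with OE at day 6. The number of genes with a difference ran from 2 to 7 when 1 of the 8 EV or OE libraries was left out.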

How the results depend on the processing

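The number called moved between alternatives. The direction of all 102 called genes held wherever they were tested, but most alternatives could not change it. Both OE libraries lay beyond both EV libraries for each, so leaving out a library could not reverse a sign. Refits of the same values gave the same change. Quantile normalization, which could alter signs, gave 0.728 to 1.155 times the main change, and median-ratio scaling 0.924 to 1.06 times. Counts are genes higher and lower with OE at day 2, against 53 and 49, then genes with a difference between days, against 28. Fitting only the groups compared gave 517 and 513, then 1172. Sample quality weights gave 576 and 444, then 1275. Without a trend 22 rose and 7 differed between days. Quantile normalization gave 109 lower and 151 differing, and median-ratio scaling 94 and 49. With chromosomes 6 and 8 left out, 25 rose and 25 fell. Leaving out 1 library gave 1 to 966 higher, 0 to 726 lower and 2 to 1336 differing, the highest each time without D2_dTAG replicate 1. With 1 library left out the remaining one is assumed to vary like the other groups. The count of 0 lower was without OE replicate 2 in limma, where 1130 genes in either direction had an unadjusted p below 0.05. Added after seeing the data, leaving out both dTAG13 libraries gave 965 and 727. Leaving out D2_dTAG replicate 1 with a second library gave 811 and 857 (EV replicate 1), 535 and 396 (EV replicate 2), 226 and 290 (OE replicate 1) and 693 and 292 (OE replicate 2). The cause of the spread of D2_dTAG replicate 1 was not tested.

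A replicate block gave 2 genes higher and 0 lower (1230 with an unadjusted p below 0.05 in limma), and 4 differing between days. Same-numbered day 2 libraries correlated at 0.13 in their deviations and those of the other experiments at -0.12 and -0.10. The labels do not say whether same-numbered libraries were made together, and with 2 libraries per group these correlations cannot settle it. Tex10 changed by 1.43 to 1.71 when 1 library was left out. Among genes that were not called, some signs reversed when 1 library was left out: Itgb3 ran from -0.089 (without OE replicate 1; -0.016 without EV replicate 1) to 0.13, Aoah from -0.015 (without EV replicate 1) to 0.30, Slc16a3 from -0.091 (without OE replicate 2) to 1.95, Bnip3 from -0.63 (without OE replicate 2) to 1.43, Dars from -0.31 to 0.067 (without EV replicate 2) and Kars from -0.098 to 0.080 (without OE replicate 2; 0.021 without EV replicate 2). Each reversed value was the same with D2_dTAG replicate 1 also left out. Depth is unknown, which limits what low values show.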

Other observations

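Cdx1, a posterior patterning gene, read 2.95 and 3.71 FPKM with EV at day 2 and 14.9 and 13.7 with OE at day 2 (change 1.82, adjusted p = 0.06 in limma, and 0.000156 without D2_dTAG replicate 1). DMSO read 2.69 and 4.58. At day 6 it read 8.35 and 6.37 with EV and 26.4 and 32.1 with OE, where it rose by 1.86 (adjusted p = 0.0264). The 6 tested Hox genes were all under 1 FPKM in the 4 day 2 EV and OE libraries, and 0 of them were called in limma or had an unadjusted p below 0.05.

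Genes of the 2-cell-like state, which a small share of pluripotent cells enters, were tested for 14 members. The most abundant was Eif1a (117 and 149 FPKM with EV, 139 and 131 with OE), and the other 13 read 0.0368 to 9.35. Of the 14, 0 were called in limma with all libraries (0 at an unadjusted p below 0.05) and 1 (Zscan5b) was lower without D2_dTAG replicate 1, with a median of -0.37. Zscan5b read 3.50 and 2.35 FPKM with EV and 0.978 and 0.917 with OE. Several Zscan4 and Usp17l copies are near identical, and their levels are uncertain.

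Sterol synthesis had 0 of 25 genes called in limma with all libraries (6 higher and 0 lower at an unadjusted p below 0.05) and 5 higher and 0 lower without D2_dTAG replicate 1, with a median of 0.27 (0.17 under quantile normalization). Both OE libraries exceeded both EV libraries for 17 of the 25, against 31.1% of all genes. Rnf17, a germ cell Tudor protein, fell by 1.18 (adjusted p = 0.0482) from 7.36 and 10.5 FPKM to 3.14 and 3.50.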
